A study of Mus musculus with 6 samples.

Results

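Interferon-stimulated genes are the genes that cells switch on in response to interferons. Here 39 of them, given by symbol, were followed in brain cells enriched for endothelial cells. The cells came from young mice in which Cre could delete both alleles or 1 allele of Rbpj. All 39 were found among the 55450 genes of the deposited table, and all 39 entered the test, which 19549 genes did in all. They were given by name, with earlier results of these data known, so their count of calls is a description. The mutant group was Cdh5(PAC)-CreERT2; Rbpjflox/flox and had both Rbpj alleles floxed. The control group was Cdh5(PAC)-CreERT2; Rbpjflox/WT and had 1 floxed allele. Both groups thus carried the Cre recombinase, which tamoxifen activates and which is driven in endothelial cells by the Cdh5 promoter. Tamoxifen, 100 µg per pup, was given to both groups on postnatal days 1 and 2, and brains were taken at day 7; a time field of the labels reads day 0. Both groups were of mixed FVB/N and C57BL/6 background and of both sexes. RBPJ is the transcription factor that Notch signalling acts through, and the title of the series concerns brain arteriovenous malformation.

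Poly(A) RNA was sequenced from cells enriched on CD31 magnetic beads, in 3 libraries per group. The labels describe RNA pooled from more than 20 mice per group, while the series text gives 13 to 15 per group from more than 3 litters. They do not say whether the 3 libraries came from separate pools, so the spread that p-values measure is that between libraries and may be a technical one. Total counts were 75744913 to 81556241 in mutant libraries and 78577192 to 82092461 in control libraries, and about 4 counts stood for 1 read pair. Rbpj itself was lower in mutants, at 47.9, 46.8 and 45.2 CPM (counts scaled to library size), against 54.3, 54.3 and 53.8 CPM in controls (log2 fold change -0.21 ± 0.04 SE, adjusted p = 0.0129). The count is of the whole gene and was not split by exon, so the extent of the deletion was not tested. The adjusted p by edgeR was 0.051 to 0.0571 without mutant library 2, control library 1 or control library 2. On the second principal component (18.8% of variance) mutant library 3 stood apart at -55.6, with the other mutant libraries at 31.2 and 26.2 and controls at -11.1 to 14.9. Endothelial identity genes were abundant in every library, with a summed level of 17343 to 18900 CPM in mutant libraries and 18502 to 19131 CPM in control libraries. Of the 14, 4 were called higher and 4 lower, against 7.56% and 6.83% of all genes tested. Higher were Emcn (log2 fold change 0.47), Egfl7 (0.43), Pecam1 (0.41) and Tie1 (0.21). Lower were Slco1c1 (-0.73), Tek (-0.62), Slc2a1 (-0.48) and Cdh5 (-0.15). The sum hides these changes.

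As background, type I interferons bind a receptor of the chains IFNAR1 and IFNAR2, whose kinases JAK1 and TYK2 phosphorylate STAT2 and other factors of its family. STAT2 joins IRF9 in a complex that binds the interferon-stimulated response element (ISRE). Interferon gamma acts through its own receptor, with JAK1 and JAK2, and ends at the gamma-activated site (GAS). The induced genes include sensors of viral RNA, enzymes that block viral replication, ISG15 and its conjugation enzymes, and GTPases of the Mx and guanylate-binding families. In brain endothelium, type I interferon is known to strengthen the barrier.

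Sequence before the start of the genes that changed most is given because it holds the letters of the ISRE. RefSeq promoter windows (GRCm38.p6), from 250 bases before to 50 bases after the annotated start, were present for 29 of the 39 genes. They were searched on both strands for the core letters of the ISRE, GAAANNGAAA, which read TTTCNNTTTC on the other strand. The 4 genes with the largest called changes whose windows held these letters are printed 5′ to 3′ on the gene's strand, up to 200 bases before the start and ending before the first base that GENCODE annotates as transcribed. Capitals mark the ISRE core letters.
Rsad2, chr12:26456453-26456652, minus strand: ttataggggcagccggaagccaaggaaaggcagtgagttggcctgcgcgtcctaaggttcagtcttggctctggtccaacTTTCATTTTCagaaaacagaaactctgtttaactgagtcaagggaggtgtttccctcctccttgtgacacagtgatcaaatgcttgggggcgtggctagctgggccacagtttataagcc
Ifit3b, chr19:34607757-34607956, plus strand: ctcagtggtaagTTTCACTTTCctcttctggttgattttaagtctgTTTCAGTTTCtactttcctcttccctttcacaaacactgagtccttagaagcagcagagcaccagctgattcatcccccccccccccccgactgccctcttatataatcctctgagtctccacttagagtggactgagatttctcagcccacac
Ifit3, chr19:34583329-34583528, plus strand: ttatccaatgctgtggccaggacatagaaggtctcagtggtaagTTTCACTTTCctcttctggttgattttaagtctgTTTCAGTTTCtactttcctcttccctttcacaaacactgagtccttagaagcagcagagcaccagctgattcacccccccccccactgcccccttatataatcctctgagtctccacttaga
Ifit1, chr19:34640689-34640870, plus strand: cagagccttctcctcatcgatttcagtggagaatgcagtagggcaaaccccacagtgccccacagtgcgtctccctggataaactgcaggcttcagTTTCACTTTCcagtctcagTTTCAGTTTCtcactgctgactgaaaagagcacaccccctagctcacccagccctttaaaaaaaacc

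In the Ifit3 and Ifit3b windows the letters were the same, TTTCACTTTC and TTTCAGTTTC, and a run of 119 bases was identical between them. Ifit1 carried the same pair of 10-letter strings in the same order, and Rsad2 carried a different one, TTTCATTTTC. Measured from the annotated start, the matches began at base -120 in Rsad2, -156 and -122 in Ifit3, -188 and -154 in Ifit3b and -104 and -85 in Ifit1.

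Not every gene that rose held these letters. The windows of Irf7 and Ifi44, printed for contrast, held none, which says only that these letters are not in the windows.
Irf7, chr7:141266482-141266624, minus strand: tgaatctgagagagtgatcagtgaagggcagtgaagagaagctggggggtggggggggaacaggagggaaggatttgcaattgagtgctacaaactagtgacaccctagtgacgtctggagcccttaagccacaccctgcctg
Ifi44, chr3:151749961-151750110, minus strand: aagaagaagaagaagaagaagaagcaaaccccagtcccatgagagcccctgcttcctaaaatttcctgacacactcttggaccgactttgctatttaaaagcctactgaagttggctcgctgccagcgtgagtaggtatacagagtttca

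Over the whole windows, 15 of the 29 genes (51.7%) held the ISRE core, against 3.99% of the 27025 genes that have such a window and 3.79% of the 12771 other tested genes. Over all genes tested 7.56% were called higher in mutants. Of the 10 members with a window that were called higher, 7 (70.0%) held the ISRE core, and of the 19 that were not called, 8 (42.1%) did. The GAS letters TTCNNNGAA, which read the same on both strands, were in 1 of the 10 called and 7 of the 19 other members, against 9.55% of all genes with a window. The letters TGGGAA, the core that RBPJ binds, or TTCCCA on the other strand, were in 4 of the 10 called and 7 of the 19 other members, against 28.3% of all genes with a window. Of 24 ISRE core matches, 2 overlapped a GAS match, and of 14 RBPJ core matches, 1 overlapped an ISRE or GAS match. Such letters describe the sequence and do not show that a factor binds there. Mx1, Mx2, Oas2, Usp18, Rtp4, Parp9, Parp14, Dhx58, Zbp1 and Ifi27 had no window in the table.

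**Figure D1:**
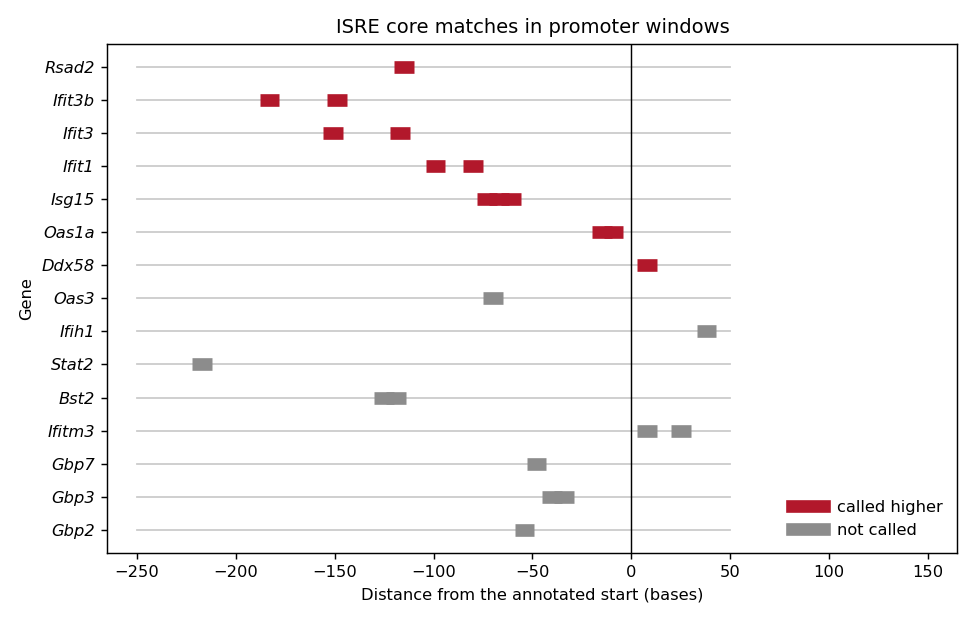
Position of each ISRE core match (coloured boxes, red for genes called higher in mutants and grey for genes not called) in the RefSeq windows of the 15 members that hold 1 or more, with the distance from the annotated start in bases on the horizontal axis. The matches of Rsad2, Ifit3b, Ifit3 and Ifit1 lie before the start, between -188 and -76, and those of Ddx58, Ifih1 and Ifitm3 lie after it.

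Of the 39 interferon-stimulated genes, 14 were higher in mutant libraries, none was lower and 25 were not called. The threshold was an adjusted p under 0.05 by the quasi-likelihood test of edgeR. Over all 19549 genes tested, 7.56% were called higher and 6.83% lower, 14.4% in all. By an unadjusted p under 0.05, 20 members were higher and 2 lower. DESeq2 called 16 higher and 2 lower (Gbp2 and Irf1), and limma-voom called 13 higher and 0 lower. The median log2 fold change was 0.37 over the 39 genes and -0.01 over all genes tested. Of the 39 values 32 were above 0, against 9475 of the 19549 over all genes tested. In 22 members every mutant library lay above every control library, against 16.8% of all genes tested, and in 3 (Irf1, Gbp2 and Gbp3) every mutant library lay below, against 17.3%. Of the called genes 3 changed at least 2-fold (Mx1, Rsad2 and Ifit3b), and 7 by less than 1.5-fold. In RNA from a bulk of enriched cells, a different number of cells of a type and a different amount of RNA per cell cannot be told apart.

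The members covered a wide range of basal levels. Per kilobase of exon, control levels ran over the members from 0.0205 CPM per kb for Oas3 to 328 CPM per kb for Ifitm3, with Bst2 at 51.0 and Ifnar1 at 37.1 CPM per kb next below it. Rsad2 had 3.14 CPM per kb in mutants and 1.34 CPM per kb in controls. For Irf7 the levels were 4.09 CPM per kb in mutants and 2.69 CPM per kb in controls. The highest control level of any called gene was that of Isg15, at 22.0 CPM per kb in mutants and 14.6 CPM per kb in controls. The members on chromosome 19 were the 4 Ifit genes, with the related Ifit1bl1 and Ifit1bl2 between them, and those on chromosome 5 were the 5 Oas genes.

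**Figure D2:**
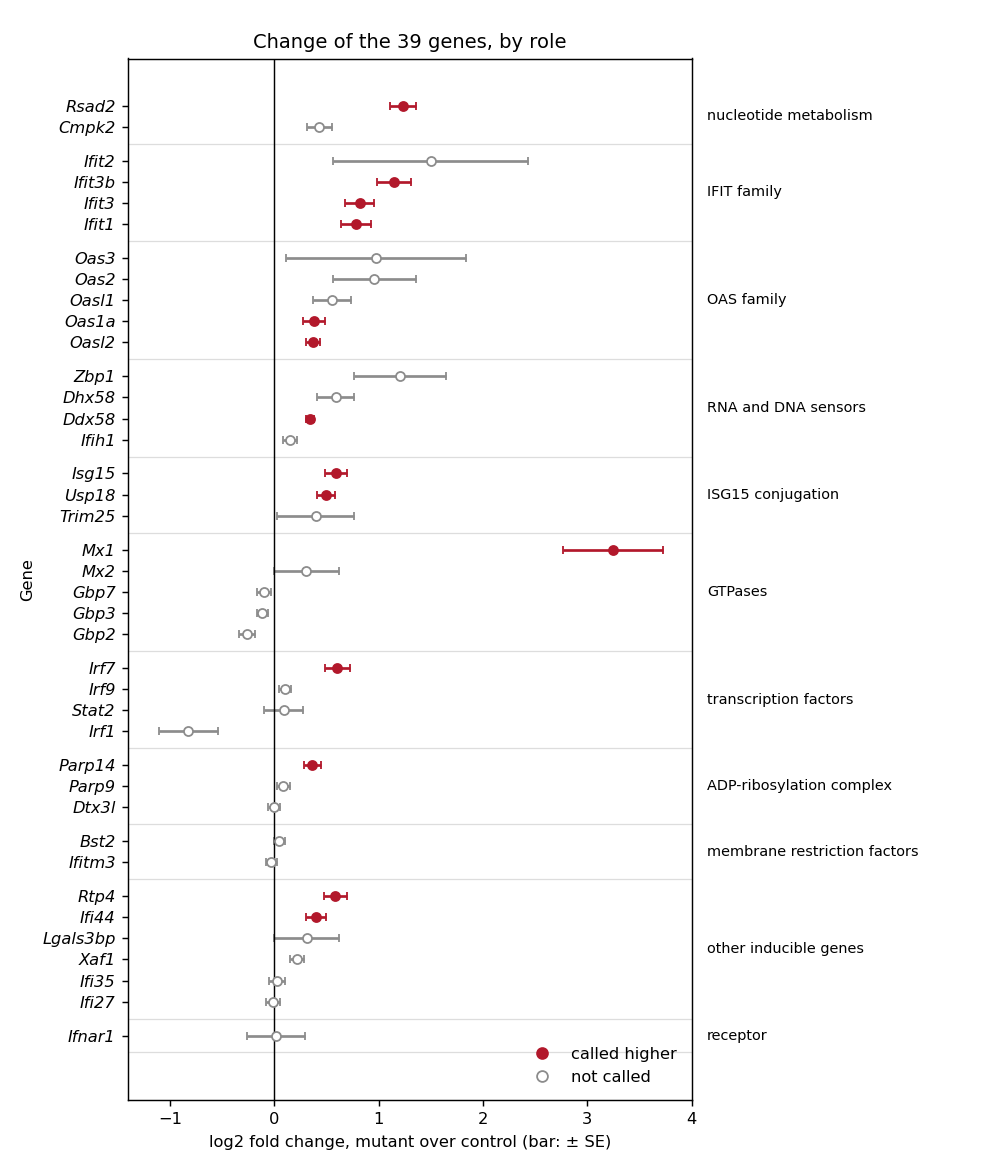
Log2 fold change (mutant over control) of each of the 39 genes, grouped by role, with bars for the SE. Mx1 lies farthest to the right at 3.24, Ifit2 has a wide bar at 1.5 ± 0.93, and Irf1, at -0.83, lies farthest to the left.

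Rsad2 and Cmpk2, neighbours on chromosome 12, act on nucleotides. Rsad2 (ENSMUSG00000020641, GRCm38 chromosome 12 from 26442746 to 26456452) encodes viperin, a radical SAM enzyme that makes a chain-terminating nucleotide. It had 13.1, 15.8 and 12 CPM in mutant libraries, against 5.55, 5.6 and 6.28 CPM in control libraries. The groups did not overlap, and the lowest mutant library was well above the highest control library. Rsad2 was 2.35-fold higher in mutants (log2 fold change 1.23 ± 0.12 SE, adjusted p = 0.000576). Cmpk2, a mitochondrial nucleotide kinase whose product feeds viperin, had 11.2, 12.8 and 10.7 CPM in mutants and 7.92, 9.88 and 7.96 CPM in controls. Its groups did not overlap either, but it missed the threshold, at 0.43 on the log2 scale with an adjusted p of 0.0555. It was called without control library 2 (adjusted p = 0.0285), by DESeq2 (0.0175), without a filter on low counts (0.0411) and with the replicate block (0.0386).

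The IFIT genes encode proteins that bind viral RNA lacking the methylation marks of host RNA. Of the 4, 3 were called higher, and in all 4 every mutant library lay above every control library. Of all genes tested, 7.56% were called higher, and 16.8% had every mutant library above every control library. The IFIT genes lie within chromosome 19 from 34550694 to 34650009. Ifit3b had 2.88, 2.72 and 3.28 CPM in mutants and 1.20, 1.36 and 1.44 CPM in controls (log2 fold change 1.15 ± 0.16 SE, adjusted p = 0.00308). Ifit3, its near-identical neighbour, had 5.89, 7.04 and 5.99 CPM in mutants and 3.08, 3.66 and 3.99 CPM in controls (0.82 ± 0.14, adjusted p = 0.00749). Reads of these paralogs may be shared between them, so the split of counts between Ifit3 and Ifit3b is uncertain. Ifit1, which binds the 5′ end of RNA, had 5.27, 5.96 and 5.29 CPM in mutants and 2.98, 3.74 and 2.86 CPM in controls (0.79 ± 0.14, adjusted p = 0.00962). In each of the 3 genes the mutant values lay close together and clear of the controls.

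Ifit2 had the widest spread of the family. It had 15.3, 17.2 and 15.1 CPM in mutants and 8.77, 7.46 and 0.610 CPM in controls, so control library 3 lay 14.4 times below the highest control. With all libraries Ifit2 had a log2 fold change of 1.5 ± 0.93 (SE) and an adjusted p of 0.405. Without control library 3 it was 0.97, with an adjusted p of 0.00361. The other Ifit genes showed no such drop in control library 3.

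**Figure D3:**
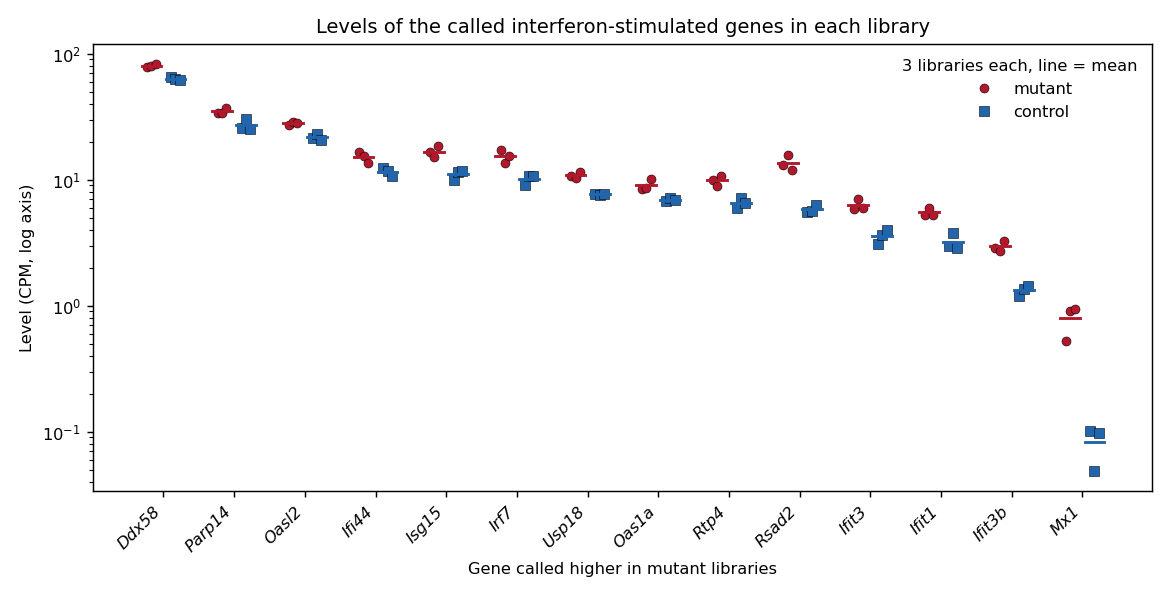
Level in CPM (log scale) in each library of the 14 genes called higher, with mutant libraries beside control libraries and 1 point per library. In every gene the 3 mutant points lie above the 3 control points, and Mx1 lies far below the others, at 0.523 to 0.945 CPM in mutants and 0.0489 to 0.101 CPM in controls.

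Mx1 showed the largest ratio of the members, from few reads. It encodes a dynamin-like GTPase whose functional form blocks nuclear replication of influenza virus in mice, and it lies on chromosome 16 from 97447035 to 97462907. Whether the alleles in these mice are functional was not examined. It had 0.523, 0.914 and 0.945 CPM in mutant libraries, against 0.101, 0.0489 and 0.0977 CPM in control libraries. These values rest on 46 read pairs in the 3 mutant libraries and 5 in the 3 control libraries. Its log2 fold change was 3.24 ± 0.48 (SE, adjusted p = 0.00376), and the ratio of the summed read pairs, scaled by library size, was 9.55, with an exact 95% interval of 3.81 to 30.8 that covers counting error only. Mx1 was the one member that passed the filter on low counts through mutant libraries alone. Without it 13 of 38 members were called and the median log2 fold change was 0.37.

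Mx2, a related GTPase annotated as a polymorphic pseudogene, had 1.98, 1.57 and 1.08 CPM in mutants and 1.05, 1.00 and 1.70 CPM in controls. The groups overlapped (adjusted p = 0.605). The guanylate-binding proteins, GTPases that attack the vacuoles of intracellular pathogens and that respond strongly to interferon gamma, had 0 of 3 members called. Of all genes tested 14.4% were called, so 0 of 3 says little. Gbp2 had 21.2, 23.4 and 24.4 CPM in mutants and 27.7, 25.9 and 29.2 CPM in controls (-0.26 ± 0.08, adjusted p = 0.0615). Gbp3 had 41.9, 38.2 and 42.1 CPM in mutants and 43.3, 45.2 and 44.0 CPM in controls (-0.12, adjusted p = 0.221). For both genes every mutant library lay below every control library, as in 17.3% of all genes tested. Gbp7 had 35.5, 33.2 and 39 CPM in mutants and 38.9, 37.8 and 38.7 CPM in controls (-0.10, adjusted p = 0.405), with overlap. Gbp2 was called lower by DESeq2 (adjusted p = 0.0345) and with library size as the only scaling (0.0432).

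Of 3 genes of the ISG15 pathway, 2 rose, against 7.56% of all genes tested. ISG15 is a ubiquitin-like protein that is joined to other proteins after interferon exposure. Isg15 had 16.5, 15.1 and 18.4 CPM in mutants and 9.87, 11.6 and 11.7 CPM in controls (0.59 ± 0.11, adjusted p = 0.00928). Usp18, the protease that removes ISG15 and also restrains signalling at IFNAR2, had 10.7, 10.3 and 11.5 CPM in mutants and 7.69, 7.62 and 7.76 CPM in controls (0.49 ± 0.08, adjusted p = 0.00705). The control values of Usp18 were almost the same in the 3 libraries. Trim25, a ligase for ubiquitin and ISG15 that acts with RIG-I, had 123, 124 and 132 CPM in mutants and 122, 50.6 and 116 CPM in controls. Control library 2 stood apart. Trim25 had a log2 fold change of 0.39 (adjusted p = 0.59), and of 0.09 (adjusted p = 0.343) without that library.

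Among the sensors of foreign nucleic acid, Ddx58 rose. Ddx58 encodes RIG-I, which detects viral RNA with a 5′ triphosphate. It had 79.1, 79.3 and 82.3 CPM in mutants and 65.6, 63.0 and 61.3 CPM in controls. The difference was small beside that of Rsad2 but well outside the spread within each group (0.34 ± 0.04, adjusted p = 0.00143). Ifih1, which encodes the sensor MDA5, had 25.4, 23.4 and 26.6 CPM in mutants and 22.7, 23.7 and 21.8 CPM in controls (0.15, adjusted p = 0.229), and the groups overlapped. Dhx58, or LGP2, a regulator of both, had 3.89 to 4.88 CPM in mutants and 2.46 to 3.54 CPM in controls (0.59, adjusted p = 0.0664). It was called by DESeq2 (adjusted p = 0.0331) and without control library 3 (0.0345). Zbp1, a sensor of Z-form nucleic acid, was scarce, at 0.729 to 1.34 CPM in mutants and 0.232 to 0.696 CPM in controls (1.21 ± 0.44, adjusted p = 0.127).

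The 2′-5′ oligoadenylate synthetases make the messenger that activates RNase L, and the OAS-like proteins are their relatives. Oasl2 had 27.0, 28.9 and 28.2 CPM in mutants and 21.5, 22.8 and 20.6 CPM in controls (0.37 ± 0.06, adjusted p = 0.00742). Oas1a had 8.46, 8.53 and 10.1 CPM in mutants and 6.78, 7.14 and 6.89 CPM in controls (0.38 ± 0.10, adjusted p = 0.0491). The call of Oas1a was the closest to the threshold of the 14, and it was lost without any 1 of the 6 libraries (adjusted p 0.0707 to 0.134). Oasl1 had 2.39 to 3.18 CPM in mutants and 1.59 to 2.17 CPM in controls (0.55, adjusted p = 0.0999), without overlap. Oas2 had 0.463 to 0.851 CPM in mutants and 0.232 to 0.415 CPM in controls (0.96, adjusted p = 0.174). Oas3 was near the limit of detection, at 0.054 to 0.45 CPM in mutants and 0.0488 to 0.227 CPM in controls (0.98 ± 0.86, adjusted p = 0.545). Of the 5 genes of the family 2 were called higher, against 7.56% of all genes tested. All 5 log2 fold changes were above 0, as were 9475 of the 19549 over all genes tested.

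Of the 4 transcription factors, Irf7 was called. Of all genes tested 14.4% were called, so 1 of 4 says little. Irf7, the inducible factor that amplifies type I interferon production, had 17.3, 13.5 and 15.5 CPM in mutants and 9.05, 10.7 and 10.8 CPM in controls (0.60 ± 0.12, adjusted p = 0.0127). Stat2 and Irf9, whose proteins are in the ISRE-binding complex, were not called. Stat2 had 9.34, 11.4 and 15.9 CPM in mutants and 11.8, 11.5 and 11.1 CPM in controls (0.09, adjusted p = 0.823), and Irf9 had 44.7, 42.0 and 45.0 CPM in mutants and 39.3, 40.3 and 43.1 CPM in controls (0.10, adjusted p = 0.29). Both overlapped. Irf1, a factor that interferon gamma induces strongly, lay in the other direction, at 19.4, 17.5 and 15.5 CPM in mutants and 26.6, 44.1 and 22.4 CPM in controls (-0.83 ± 0.28, adjusted p = 0.137). Every mutant library of Irf1 lay below every control library, as in 17.3% of all genes tested. Without control library 2, the highest, the log2 fold change was -0.48 with an adjusted p of 0.0616, and DESeq2 called it lower with all libraries (adjusted p = 0.0026).

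The membrane proteins and the receptor chain, abundant in both groups, were not called. Ifitm3, which blocks fusion of viruses with endosomes, had 225, 219 and 211 CPM in mutants and 209, 223 and 236 CPM in controls (-0.03, adjusted p = 0.778). Bst2, or tetherin, which holds budding virus at the cell surface, had 47.3, 50.3 and 45.2 CPM in mutants and 44.9, 46.3 and 46.8 CPM in controls (0.05, adjusted p = 0.638). Ifnar1, the receptor chain, had 190, 185 and 294 CPM in mutants and 281, 177 and 204 CPM in controls (0.02, adjusted p = 0.98). Mutant library 3 and control library 1 were high for Ifnar1, and in none of these 3 genes did the groups separate.

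The ADP-ribosylation genes split. Parp14, a mono-ADP-ribosyltransferase, had 33.7, 33.8 and 36.9 CPM in mutants and 25.8, 30.1 and 25.2 CPM in controls (0.36 ± 0.08, adjusted p = 0.0245). It was called in 1 of the 6 fits that left out a library, that without control library 2, and its adjusted p was 0.054 to 0.0877 in the others. Parp9 and Dtx3l, which form a complex and overlap on opposite strands of chromosome 16, did not separate. Parp9 had 39.1, 42.1 and 43.0 CPM in mutants and 39.4, 37.0 and 40.8 CPM in controls (0.08, adjusted p = 0.437). Dtx3l had 41.3, 46.2 and 45.8 CPM in mutants and 45.6, 44.4 and 43.6 CPM in controls (adjusted p = 0.984).

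Among the remaining members, 2 of 6 rose, against 7.56% of all genes tested. Rtp4, a chaperone of G protein-coupled receptors that also limits virus replication, had 9.98, 8.94 and 10.6 CPM in mutants and 6.01, 7.17 and 6.57 CPM in controls (0.58 ± 0.11, adjusted p = 0.0117). Ifi44, an interferon-induced protein with antiviral activity, had 16.6, 15.3 and 13.7 CPM in mutants and 12.3, 11.6 and 10.8 CPM in controls (0.40 ± 0.10, adjusted p = 0.0344). Its call held in 1 of the 6 fits without a library, that without mutant library 3, and its adjusted p was 0.0571 to 0.103 in the others. Xaf1, a pro-apoptotic factor, had 19.1, 19.7 and 17.9 CPM in mutants and 16.6, 15.7 and 16.6 CPM in controls (0.22, adjusted p = 0.0823). Its groups were separate, unlike those of the next 3. Ifi35, a partner of the protein NMI, had 28.4, 29.6 and 26.0 CPM in mutants and 25.1, 28.5 and 29.0 CPM in controls (0.02, adjusted p = 0.9). Ifi27 had 20.5, 20.9 and 21.5 CPM in mutants and 21.2, 19.7 and 22.5 CPM in controls (-0.01, adjusted p = 0.934). Lgals3bp, a secreted glycoprotein, had 48.2, 66.4 and 39.2 CPM in mutants and 35.5, 32.1 and 56.4 CPM in controls (0.31, adjusted p = 0.619), with 2 mutant libraries and 1 control library inside the range of the other group.

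By library, the called genes differed in which mutant library was highest. Mutant library 3 was the highest mutant library in 8 of the 14, mutant library 2 in 4 and mutant library 1 in 2. Their median log2 ratio to the control mean was 0.59, 0.43 and 0.65 in mutant libraries 1, 2 and 3, and -0.06, 0.04 and 0.01 in control libraries 1, 2 and 3, a direction that being called higher fixes. The members that were not called had medians of 0.13, 0.11 and 0.14 in the mutant libraries and 0.00, -0.02 and 0.06 in the control libraries. Without mutant library 3, which stood apart on the second principal component, 12 members were called higher and none lower.

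**Figure D4:**
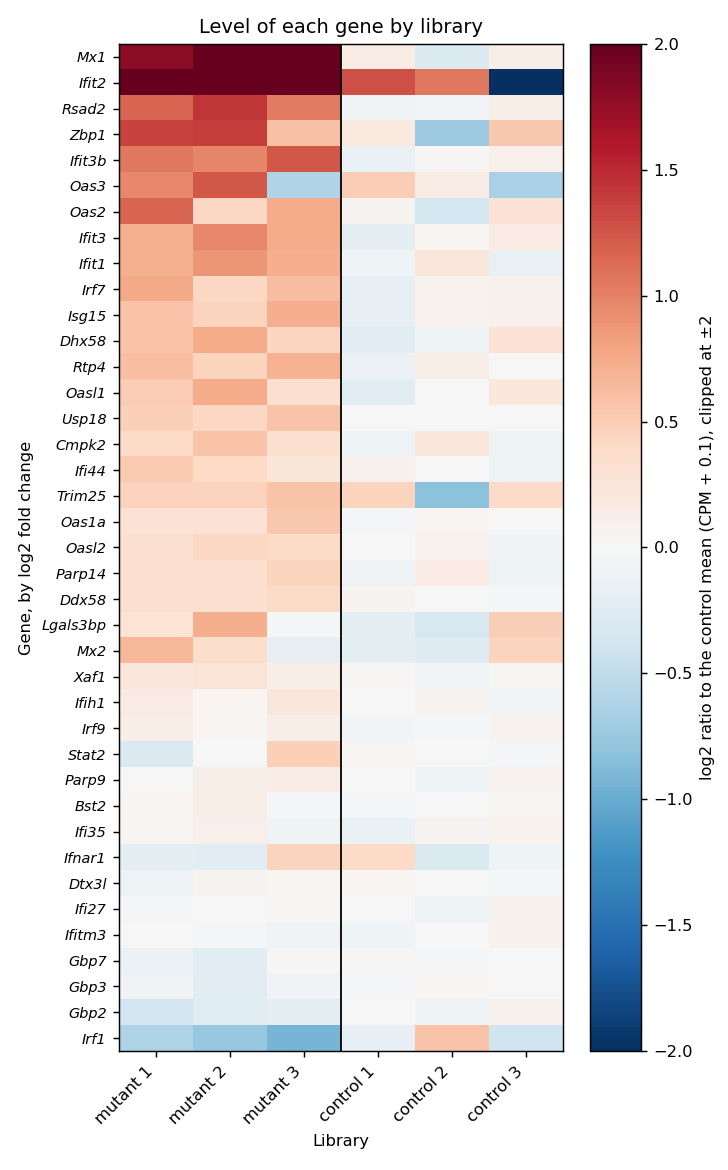
Log2 ratio of each member's level in each library to the control mean, from CPM with 0.1 added, with mutant libraries to the left of control libraries and colours limited to -2 and 2. The called genes are high in each of the 3 mutant libraries, and single libraries stand out for Ifit2 in control library 3, Trim25 and Irf1 in control library 2 and Ifnar1 in mutant library 3 and control library 1.

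The rest of the pathway was read in 5 lists of 149 other genes, of which 126 were tested, 17 (13.5%) were called higher and 7 lower, against 7.56% and 6.83% of all genes tested. The count called higher was 9 without mutant library 1, 8 without mutant library 2 and 7 without control library 1. Transcripts of the interferons themselves were at the limit of detection. Of 21 ligand genes none passed the filter, 17 had no count in any library, and the highest value of any was 0.109 CPM. Ifnb1 had 0.0486 CPM in mutant library 1 and 0.0379 CPM in control library 1 and no count elsewhere. The 21 genes together had at most 21 counts in a mutant library and at most 7 in a control library, where 3 read pairs (12 counts) correspond to 0.162 CPM in the smallest library. A difference in ligand transcripts was therefore not detectable at this depth.

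Receptor chains did not pass the threshold in either direction, and of the 3 kinases Jak1 and Jak2 were called higher and Tyk2 was not called. Over all genes tested 7.56% were called higher, and a count among 3 kinases says little. Ifnar2 had 115, 123 and 124 CPM in mutants and 118, 122 and 125 CPM in controls (-0.01, adjusted p = 0.936). Of the interferon gamma receptor, Ifngr1 averaged 40.3 ± 3.45 CPM in mutants and 45.7 ± 2.52 CPM in controls (SD, n = 3 each), with an adjusted p of 0.166 by edgeR. Ifngr2 averaged 70.9 ± 6.35 CPM in mutants and 59.3 ± 5.07 CPM in controls, with an adjusted p of 0.0882. Il10rb, a chain of the interferon lambda receptor, averaged 76.3 ± 33.1 CPM in mutants and 81.5 ± 4.23 CPM in controls, and its partner Ifnlr1 was scarce, at 0.18 ± 0.129 CPM in mutants and 0.269 ± 0.141 CPM in controls. Jak1 had 208, 213 and 219 CPM in mutants and 192, 193 and 186 CPM in controls (0.17 ± 0.03, adjusted p = 0.0171), and was lost without mutant library 2, control library 1 or control library 3 (adjusted p 0.0535 to 0.0567). Jak2 had 120, 117 and 117 CPM in mutants and 96.2, 99.9 and 92.5 CPM in controls (0.29 ± 0.04, adjusted p = 0.00251). For Jak1 and Jak2 every mutant library lay above every control library, as in 16.8% of all genes tested. For Tyk2, the kinase bound to IFNAR1, every mutant library lay below every control library without a call, as in 17.3% of all genes tested. Tyk2 had 28.9, 32.4 and 30.6 CPM in mutants and 32.6, 34.2 and 33.0 CPM in controls (-0.12, adjusted p = 0.257).

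Among 22 genes of nucleic acid sensing upstream of interferon, 3 (13.6%) rose and 1 fell. Over all genes tested 7.56% rose and 6.83% fell, and such small counts say little of the list. Traf6, an adaptor ligase of Toll-like receptor signalling, averaged 64.0 ± 2.29 CPM in mutants and 53.2 ± 0.273 CPM in controls (0.27 ± 0.04, adjusted p = 0.00489 by edgeR). Mavs, the mitochondrial adaptor of RIG-I and MDA5, had a log2 fold change of 0.26 (adjusted p = 0.0241), and Ticam1, the adaptor of Toll-like receptor 3, one of 0.26 (adjusted p = 0.0439). Leaving out single libraries ended the calls of Mavs in 5 of 6 fits and of Ticam1 in all 6. Unc93b1, which carries endosomal Toll-like receptors, averaged 69.4 ± 2.24 CPM in mutants and 80.9 ± 1.24 CPM in controls (-0.22 ± 0.04, adjusted p = 0.00881 by edgeR). Of 19 inhibitors of the pathway, Pias1, a SUMO ligase that restrains interferon signalling, was called higher (0.22 ± 0.05, adjusted p = 0.0202) and none was called lower, with 2 lower by an unadjusted p under 0.05 and 0 by DESeq2 or limma-voom. The call of Pias1 was lost in 4 of 6 fits without a library (adjusted p up to 0.0711).

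Of the 77 other interferon-inducible genes 75 were tested, and 11 (14.7%) rose and 6 (8%) fell. Over all genes tested 7.56% rose and 6.83% fell, so the share that fell was near that of all genes, and the median log2 fold change was 0.15. The largest rises were in Ifi204 (1.08 ± 0.25, adjusted p = 0.0264), Ifi211 (1.06 ± 0.27, 0.0362) and Ifi207 (0.88 ± 0.20, 0.0264), neighbours in the chromosome 1 family of DNA-binding PYHIN proteins. Each of these 3 lost its call without at least 4 of the 6 libraries taken singly, and reads may be shared within the family. Slfn2, a regulator of lymphocyte and monocyte quiescence, had 11.6, 10.6 and 8.10 CPM in mutants and 4.66, 5.07 and 5.58 CPM in controls (0.98 ± 0.15, adjusted p = 0.00455). Cxcl10, a chemokine that draws T cells, had 9.44, 10.8 and 9.27 CPM in mutants and 5.33, 5.37 and 6.51 CPM in controls (0.78 ± 0.12, adjusted p = 0.0046). Neither group of values overlapped the other for these genes, and the other 6 that rose were Irgm1, Rnf213, Trim30a, Sp100, Parp12 and Zc3hav1, the last 5 at 0.41 to 0.18 on the log2 scale. Of these Sp100, Parp12 and Zc3hav1 lost their calls in at least 3 of the 6 fits without a library.

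The 6 that fell were Irgm2, Gbp5, Gbp4, Igtp, Gbp9 and Ifitm2. The first 5 are GTPases, but 7 other listed GTPases of these families were not called, among them Gbp6 (-0.30, adjusted p = 0.403) and Ifi47 (0.13, adjusted p = 0.237). Gbp5 had 15.5, 14.4 and 15 CPM in mutants and 21.8, 21.8 and 21 CPM in controls (-0.53 ± 0.06, adjusted p = 0.00143). Gbp4 (-0.52 ± 0.10, adjusted p = 0.0147, and 0.0514 without mutant library 1) and Gbp9 (-0.43 ± 0.05, 0.00178) overlap each other on the same strand, so their counts may be mixed. Irgm2, of the immunity-related GTPases, had 20.4, 20.6 and 22.2 CPM in mutants and 33.0, 33.6 and 30.2 CPM in controls (-0.61 ± 0.07, adjusted p = 0.00086). Igtp, whose exons overlap those of Irgm2 on the same strand, had a log2 fold change of -0.43 ± 0.11 (adjusted p = 0.0394) and lost its call in 4 of 6 fits without a library. Irgm1, of the same family, went the other way, at 47.4, 49.7 and 48.9 CPM in mutants and 31.9, 31.5 and 35.7 CPM in controls (0.56 ± 0.06, adjusted p = 0.000838). Ifitm2, a neighbour of Ifitm3, averaged 137 ± 4.84 CPM in mutants and 158 ± 6.54 CPM in controls (-0.21 ± 0.05, adjusted p = 0.0193 by edgeR), and lost its call in 4 of 6 such fits.

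**Figure D5:**
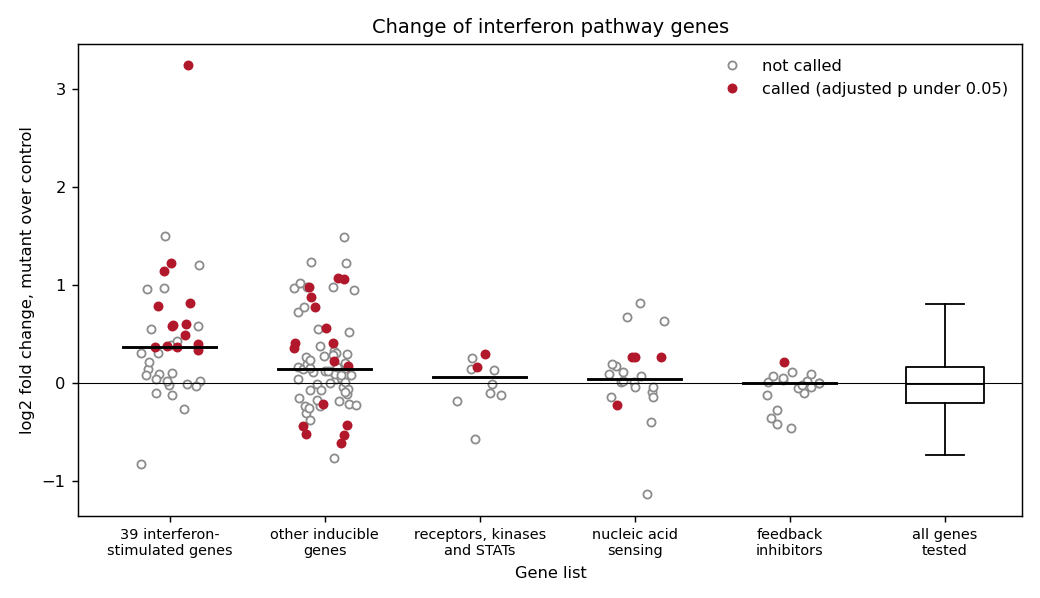
Log2 fold change (mutant over control) of each tested gene of the 39 members and of the other pathway lists, 1 point per gene, beside a box for the quartiles of all genes tested, with whiskers to the 5th and 95th percentiles; black lines are medians. The members have a median of 0.37 and the other inducible genes 0.15, while the other lists lie near the -0.01 of all genes.

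Several cell types other than endothelium respond to or carry such transcripts, so their markers stand here beside the counts. For comparison, 7.56% of all genes tested were called higher and 6.83% lower. Microglia and macrophage markers summed to 1736 to 1804 CPM in mutant libraries and 2201 to 2258 CPM in control libraries, with 10 of 20 lower and none higher in mutants (1 higher by an unadjusted p under 0.05, 0 by DESeq2 and 0 by limma-voom). Plasmacytoid dendritic cell markers summed to 288 to 360 CPM in mutants and 215 to 288 CPM in controls, with 0 of 8 tested called by edgeR, 0 by unadjusted p, 3 higher by DESeq2 and 0 by limma-voom. That sum was mostly Tcf4, at 229 ± 40.6 CPM in mutants and 164 ± 36.9 CPM in controls, which other cells also express, and the list holds Bst2, a member. Lymphocyte and natural killer cell markers summed to 22.1 to 27.4 CPM in mutants and 19.1 to 21.5 CPM in controls. Their median log2 fold change was 0.81, with 12 of 14 above 0, against 9475 of the 19549 over all genes tested. Cd79a, a B cell gene and one of the most abundant of them, had 5.16 ± 0.292 CPM in mutants and 4.89 ± 1.23 CPM in controls, while the T cell gene Cd3e had 0.778 ± 0.162 CPM in mutants and 0.277 ± 0.116 CPM in controls. Of these 14 tested genes edgeR called 0, while 8 were higher by an unadjusted p under 0.05 and DESeq2 called 4 (limma-voom 0), and 10 of the 17 listed, Cd3e and Nkg7 among them, were under 1 CPM. Granulocyte and monocyte markers summed to 93.7 to 120 CPM in mutants and 80.4 to 103 CPM in controls, with Ngp called higher of 14. Of their log2 fold changes 10 were above 0. By an unadjusted p under 0.05, 3 were higher and 1 lower, and DESeq2 called 3 higher and limma-voom 1. The part of these cells in the changes of interferon-stimulated genes was not tested.

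Markers of other tissue cells moved too, and again 7.56% of all genes tested were called higher and 6.83% lower. Pericyte and smooth muscle markers summed to 5253 to 5361 CPM in mutants and 4718 to 4822 CPM in controls (5 of 15 higher, 6 lower). The higher sum was largely Mcam, at 902 ± 9.27 CPM in mutants and 439 ± 11.2 CPM in controls. Cspg4, Kcnj8, Abcc9 and Higd1b were also higher. The smooth muscle genes Acta2, Tagln, Myh11 and Cnn1 were lower, at -1.32, -1.17, -1.02 and -1.84 on the log2 scale, as were Notch3 and Vtn. Fibroblast markers summed to 566 to 749 CPM in mutants and 875 to 990 CPM in controls (4 of 10 lower). Their log2 fold changes were above 0 in 0 of 10, and DESeq2 called 6 lower and limma-voom 5. Astrocyte markers summed to 294 to 424 CPM in mutants and 515 to 568 CPM in controls (2 of 10 lower, 0 higher). Their log2 fold changes were above 0 in 1 of 10. DESeq2 called 5 lower and 1 higher, and limma-voom 1 lower and 0 higher. The most abundant astrocyte marker, Gja1, had 159 ± 69.2 CPM in mutants and 269 ± 8.40 CPM in controls. Gja1 was not called (adjusted p = 0.326 by edgeR). Neuron and oligodendrocyte markers summed to 320 to 394 CPM in mutants and 300 to 322 CPM in controls (2 of 14 higher, 2 lower). Erythroid and platelet markers summed to 4673 to 4968 CPM in mutants and 6985 to 7186 CPM in controls, with 5 of 11 lower. Their log2 fold changes were above 0 in 0 of 11, and DESeq2 called 6 lower and limma-voom 5. The part of all these cells in the results was not tested either.

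Exons of 4 members overlap another gene on the same strand: Irf9 with Rnf31, Rtp4 with Gm45338, Parp14 with Gm49730 and Gbp7 with Gm43802. A further 9 overlap one on the opposite strand, among them Irf7 with Phrf1, Usp18 with Gm44148, Irf1 with Gm17334 and Parp9 with Dtx3l. The sources used here do not say whether counting used the strand of the reads, and without strand the reads of such pairs cannot be told apart.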

How the data were processed

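Poly(A) RNA-seq of 3 mutant and 3 control libraries was analysed. Per the submitters' processing notes, the tools were StringTie 1.3.4, HISAT2, edgeR, cutadapt 1.10 and FastQC 0.10.1, with the build GRCm39; roles, parameters and strand use are not given in the sources used here. The deposited values are estimated counts of each gene, as whole numbers with no normalization. Valid reads (a count of 50226902 to 53986268 per library) and the percent of reads and bases passing quality limits come from a second deposited file. All gene IDs match GENCODE M21 (GRCm38), which gave symbols, coordinates and exon lengths. A count of 4 was found for 1118 to 1190 genes of a library, a count of 3 for 316 to 365 and a count of 5 for 171 to 189, so about 4 counts stand for 1 read pair and precision follows read pairs.

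The test was planned for raw counts and was run on the deposited estimates, which needed no rounding. Genes were kept with filterByExpr (minimum count 10), scaled by TMM (factors 0.978 to 1.009) and tested by quasi-likelihood in edgeR 4.0.16 (limma 3.58.1, R 4.3.3; robust fit, group only), with p-values adjusted by Benjamini-Hochberg over all 19549 genes. A gene was called at an adjusted p under 0.05, and rose or fell is written of called genes only. The SE is the log2 fold change over the square root of F. CPM use TMM scaling, and levels per kb divide by merged exon length. Simulated data (3 sets) served to check the test. Alternatives were RLE scaling, library size only, no filter, a mean of at least 5 CPM, DESeq2 1.42.0, limma-voom, counts divided by 4, a replicate block and leaving out each library.

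Every called member and every member with a mean of at least 5 CPM is given in every library; of each other pathway list the called genes with the largest changes are named, up to 6 in each direction, with receptor chains, Jak1, Tyk2, Ifnb1 and Rbpj whatever their values. Cell type markers are given by sums and counts. One further gene that this rule names is not reported here. In the lists, Mb21d1 was read as Cgas, and Mnda as Ifi211, through RefSeq synonyms. The members and lists were chosen with earlier results of these data known. Within a group, libraries differed beyond sampling noise (median chi-square 1.88 to 2.76 times its expectation over genes with a mean count of at least 80, against 6.03 to 6.94 between groups), so none were merged as 1 library deposited again. Repeat libraries of 1 pool could also differ so, and this does not show separate pools.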

Additional observations from a re-analysis of the deposited data

How the results depend on the processing

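Of the 14 called members, 11 were called in every alternative that gave them a value; Oas1a was called in 6 of 14, and Ifi44 and Parp14 in 8 of 14 each. No member changed direction past the threshold: of 534 comparisons of a member with an alternative, 504 kept their side of the threshold, 10 gained a call and 20 lost one. Members called higher numbered 14 with RLE scaling, 13 with library size only, 15 without a filter, 10 of the 29 left at a mean of at least 5 CPM, 16 by DESeq2, 13 by limma-voom, 14 with counts divided by 4, and 11 to 13 without a library. Members called lower numbered 0, except 1 with library size only (Gbp2) and 2 by DESeq2 (Gbp2 and Irf1). Genes of the 5 other pathway lists called higher numbered 17, and 9, 8 and 7 without mutant library 1, mutant library 2 and control library 1, the range over the 6 libraries being 7 to 14; those called lower numbered 7, and 5 to 6. Over all genes, 1477 were called higher and 1335 lower, against 1100 to 1270 and 807 to 1125 without a library, with 865 lower without mutant library 2, 807 without control library 1 and 861 without control library 2. Fewer libraries enter those fits. The median log2 fold change of all genes was -0.01 with TMM, 0.00 with RLE scaling and -0.02 with library size only. The replicate numbers did not pair the libraries: deviations of same-numbered libraries correlated at -0.02, 0.01 and 0.02, and mutant library 1 correlated best with control library 2. With the replicate block 13 members were called higher and none lower, with 1106 genes higher and 953 lower over all genes. Depth limits Mx1, Oas3, Oas2, Zbp1 and the ligands most, with few read pairs each.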
